A study of Homo sapiens with 12 samples.

Results

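The genes described are 10 that act in or restrain the sensing of DNA in the cytosol: CGAS, STING1, TBK1, IRF3, TREX1, DNASE2, RNASEH2A, RNASEH2B, RNASEH2C and ADAR. They were taken by symbol from the deposited table of counts, which gave 21599 rows once identifiers sharing a symbol were summed, and each of the 10 had 1 identifier. All 10 were listed, and 9 of them were among the 13340 genes with enough counts to be tested. CGAS was the exception.

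The cells were RPE1, an hTERT-immortalised human retinal pigment epithelial line that the labels call WT, and RNA was sequenced from 12 libraries. In the DOX_F group, 4 libraries came from cells given doxorubicin at 50 nM for 72 h together with ferrostatin-1 at 5 µM, which was renewed at 48 h. In the DOX group, 4 libraries came from cells given 50 nM doxorubicin for 72 h, and in the CTRL group 4 came from cells given the solvent DMSO. Doxorubicin is an anthracycline that traps topoisomerase II and damages DNA, and ferrostatin-1 traps lipid radicals and blocks ferroptosis. No group used here had ferrostatin-1 alone, so DOX_F was compared with DOX for the addition of ferrostatin-1 to doxorubicin. DOX against CTRL gives the response to doxorubicin, and DOX_F against CTRL gives that to both compounds; the comparisons share libraries and are not independent of each other. The labels state 4 replicates without saying whether these were separate cultures, so the p-values cover the spread between these libraries, which may be technical.

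The enzyme cGAS, made by CGAS, binds double-stranded DNA in the cytosol and makes the messenger cGAMP, which activates STING on the endoplasmic reticulum. STING moves to the Golgi and recruits the kinase TBK1, which phosphorylates the transcription factor IRF3, and IRF3 switches on type I interferon genes. Nucleases keep the system quiet by removing its ligands: TREX1 degrades DNA in the cytosol, DNASE2 degrades DNA in lysosomes, and the RNase H2 complex removes ribonucleotides from DNA and RNA from hybrids with DNA. ADAR edits adenosine to inosine in double-stranded RNA and thereby restrains the parallel RNA-sensing pathway, and inherited loss of TREX1, RNase H2 or ADAR function causes an interferon-driven disease, Aicardi-Goutières syndrome.

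Library totals were 20243458 to 24879198 counts in DOX_F, 17980433 to 20607019 in DOX and 17523920 to 19650696 in CTRL. CTRL replicate 1 stood apart from its group. Compared gene by gene, its counts gave a chi-square of 7.01 to 13.0 for each degree of freedom against the other CTRL libraries. Those gave 2.41 to 3.83 among themselves, and pairs within DOX or DOX_F gave 2.66 to 8.13. Values are given as CPM, counts scaled to a common library size by TMM factors, and 3 counts corresponded to 0.124 to 0.172 CPM, an amount that covers counting error only. Of the markers of pigment epithelium, TYR, TTR, RLBP1, TYRP1 and LRAT had at most 7 counts in any library. MITF and OTX2 were expressed. OTX2 fell in DOX against CTRL (log2 fold change -0.68, edgeR adjusted p = 1.65e-07), whereas MITF had -0.01 (edgeR adjusted p = 0.846). MITF was higher in DOX_F against DOX (0.20, edgeR adjusted p = 0.0272) and in DOX_F against CTRL (0.19, edgeR adjusted p = 0.00375). BEST1 had 16 to 37 counts, PMEL 5 to 14 and SERPINF1 1 to 14, and none of these passed in any comparison. The epithelial markers KRT8, KRT18, KRT19, CDH1 and EPCAM summed to 1062 to 1171 CPM in DOX_F, 1082 to 1128 in DOX and 548 to 639 in CTRL. Nearly all of that was KRT8 and KRT18. KRT19 had at most 6 counts in any library, CDH1 at most 3 and EPCAM at most 1. Of 7 immune markers, 4 were analysed: PTPRC had at most 12 counts in any library, CD14 at most 6 and LYZ at most 30, while CD68, a lysosomal protein that is not restricted to immune cells, rose in DOX and in DOX_F against CTRL. Their summed level, nearly all of it CD68, was 77.4 to 87.9 CPM in DOX_F, 70.8 to 78.4 in DOX and 62.2 to 69.9 in CTRL, and its part in the changes of the 10 genes was not tested. Of 6 proliferation markers, all 6 fell in DOX against CTRL, and their summed level was 113 to 128 CPM in DOX_F, 135 to 139 in DOX and 2029 to 2337 in CTRL. In bulk RNA, a change in the mix of cells and a change in RNA per cell cannot be told apart.

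After doxorubicin, STING1 and DNASE2 rose, TREX1 and all 3 subunits of RNase H2 fell, and TBK1, IRF3 and ADAR did not pass the test. That was 6 of the 9 tested genes, called by edgeR's quasi-likelihood test at a Benjamini-Hochberg adjusted p below 0.05, against 67.1% of all tested genes in DOX against CTRL. The count is therefore near the background, and the same holds for the 6 of 9 whose DOX and CTRL libraries did not overlap, since 60.5% of all tested genes were so separated. The median log2 fold change of the 9 was -0.08, and that of all tested genes was -0.01. In DOX_F against CTRL, 5 of 9 changed, DNASE2 upwards and TREX1 and the RNase H2 subunits downwards, against 67.2% of all tested genes (33% higher and 34.2% lower). The DOX_F and CTRL libraries of the same 5 did not overlap, as for 59.5% of all tested genes. In DOX_F against DOX, 1 of 9 changed, STING1, which was lower, against 5.64% of all tested genes; it was also the 1 gene of the 9 whose DOX_F and DOX libraries did not overlap, a separation seen in 11.2% of all tested genes.

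**Figure D1:**
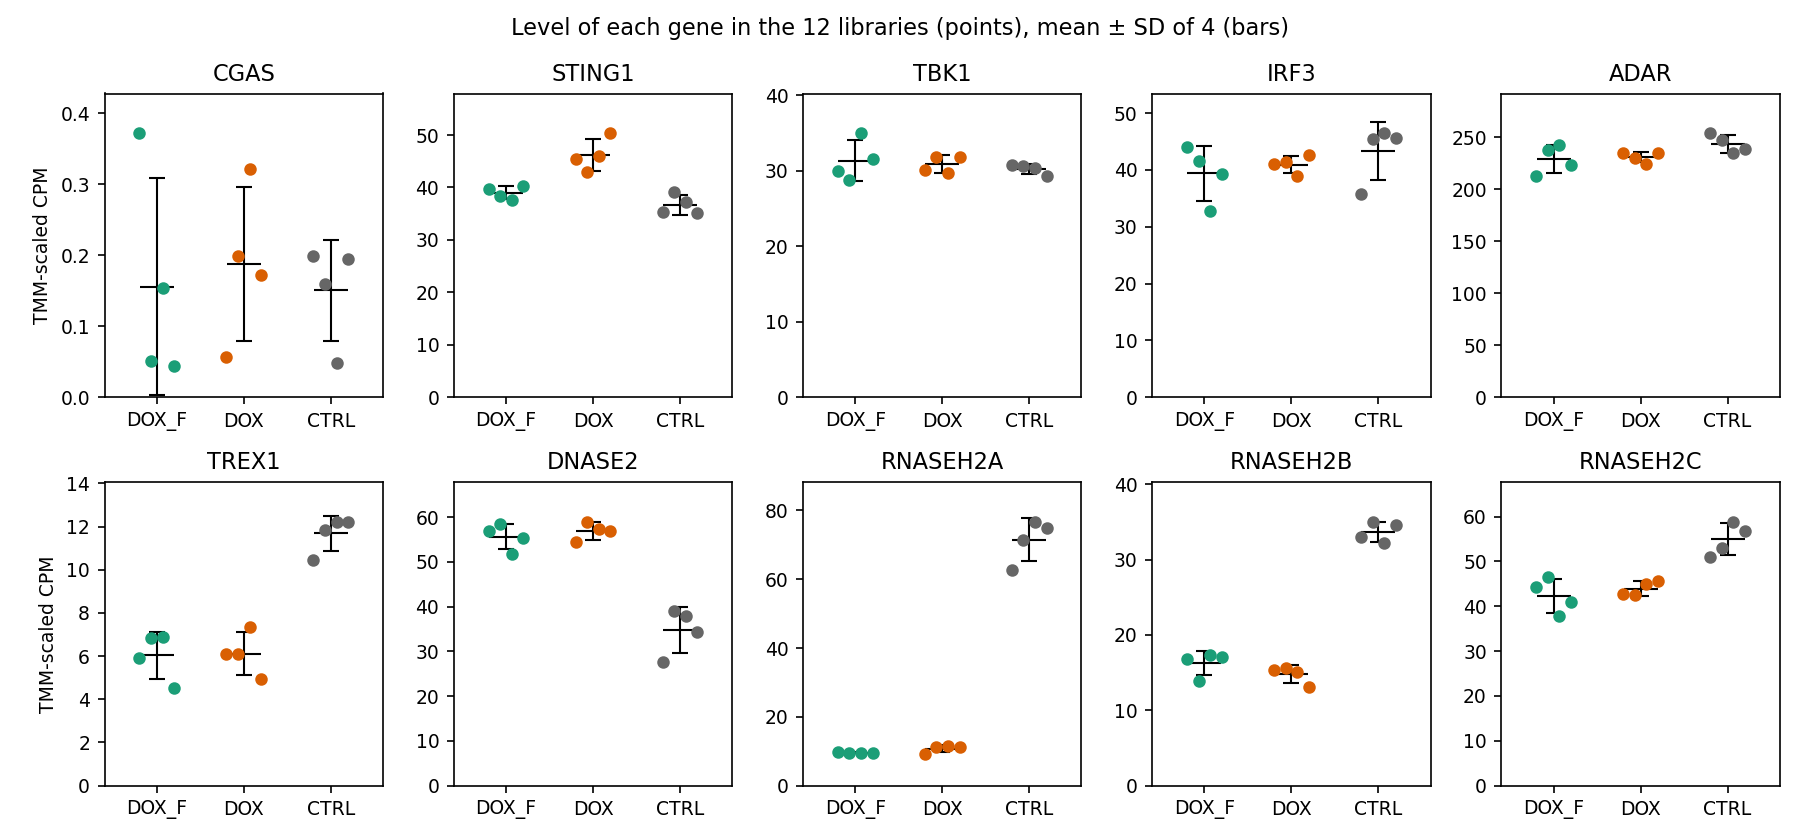
Level of each of the 10 genes in every library (points, TMM-scaled CPM on a linear axis from 0 with its own range in each panel; bars are the group mean and SD, n = 4), with DOX_F, DOX and CTRL from left to right. RNASEH2A lies between 9.25 and 11.5 CPM in all 8 treated libraries and between 62.8 and 76.7 CPM in the 4 CTRL libraries, while STING1 is highest in DOX.

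**Figure D2:**
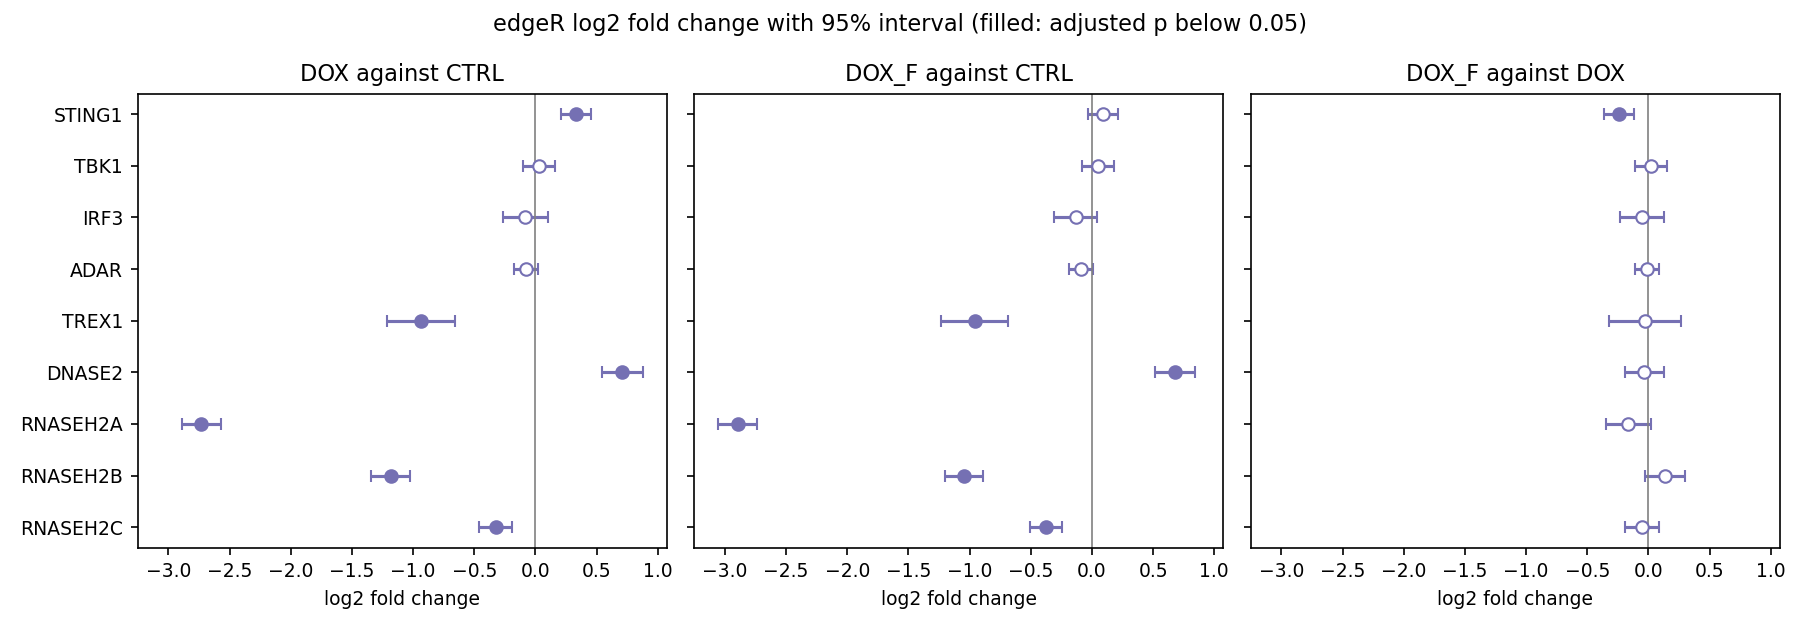
Log2 fold change of each tested gene in DOX against CTRL, DOX_F against CTRL and DOX_F against DOX, from left to right. Bars are 95% confidence intervals from the edgeR fit, and points are filled where the adjusted p was below 0.05. Intervals for DOX_F against DOX include 0 for every tested gene but STING1, whose interval runs from -0.36 to -0.12.

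CGAS, the DNA sensor, lies on chromosome 6 from 73413515 to 73452276 (minus strand; these and the following positions are from GENCODE 29 on GRCh38). Its RNA was at the edge of detection. Counts in replicates 1 to 4 were 9, 1, 3 and 1 in DOX_F, 1, 4, 6 and 3 in DOX, and 4, 3, 1 and 4 in CTRL. In 7 of the 12 libraries it had at most 3 counts, and the groups overlapped throughout. Pooled over the libraries of a group, 14 counts gave 0.163 CPM in DOX_F (exact Poisson 95% interval 0.0891 to 0.274), 14 counts gave 0.190 CPM in DOX (0.104 to 0.318), and 12 counts gave 0.149 CPM in CTRL (0.0772 to 0.261). Ratios of pooled levels were 1.27 for DOX against CTRL (0.545 to 3.00), 0.86 for DOX_F against DOX (0.38 to 1.95) and 1.09 for DOX_F against CTRL (0.469 to 2.58). No difference was detectable at this depth, and changes within these intervals could not have been seen.

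STING1, the adaptor that cGAMP activates, was higher in DOX than in either other group. Its level in replicates 1 to 4 was 39.7, 38.4, 37.7 and 40.3 CPM in DOX_F, 45.4, 43.0, 46.0 and 50.4 CPM in DOX, and 35.4, 39.2, 37.3 and 35.1 CPM in CTRL. All DOX libraries stood above all others, whereas DOX_F and CTRL overlapped. The log2 fold change was 0.33 ± 0.06 (SE) in DOX against CTRL (edgeR adjusted p = 5.43e-05) and -0.24 ± 0.06 in DOX_F against DOX (edgeR adjusted p = 0.0145). In DOX_F against CTRL it was 0.09, with an interval from -0.03 to 0.21 (edgeR adjusted p = 0.193). The call against DOX rests in part on DOX replicate 4, the highest library: without it the log2 fold change was -0.20 (edgeR adjusted p = 0.0605), and the adjusted p ranged from 0.00612 to 0.0605 over the 19 alternatives. The deposited counts list STING1 under an identifier that GENCODE 29 lacks. That release places the gene, as TMEM173 under another identifier, on chromosome 5 from 139475534 to 139482935 (minus strand). The length used for STING1 per kilobase is that of the TMEM173 principal transcript.

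TBK1, the kinase that STING recruits, did not pass the test in any comparison. Its libraries ran from 28.8 to 35.0 CPM in DOX_F, 29.8 to 31.9 CPM in DOX and 29.3 to 30.7 CPM in CTRL, and all 3 groups overlapped. The log2 fold change in DOX against CTRL was 0.03, with a 95% interval from -0.10 to 0.16 (edgeR adjusted p = 0.676), and it was 0.02 in DOX_F against DOX (edgeR adjusted p = 0.927). TBK1 lies on chromosome 12 from 64451880 to 64502108 (plus strand).

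IRF3, the transcription factor that TBK1 phosphorylates, averaged 39.4 ± 4.85 CPM in DOX_F, 41.0 ± 1.53 CPM in DOX and 43.3 ± 5.05 CPM in CTRL (SD, n = 4 each). Groups overlapped, with CTRL replicate 1 at 35.8 CPM below its 3 companions at 45.4 to 46.5. The log2 fold change was -0.08 in DOX against CTRL (interval -0.26 to 0.10, edgeR adjusted p = 0.415) and -0.13 in DOX_F against CTRL (edgeR adjusted p = 0.173). Without CTRL replicate 1, the DOX_F value was -0.21 and passed (edgeR adjusted p = 0.0153). IRF3 lies on chromosome 19 from 49659569 to 49665875 (minus strand), and 21.5% of the bases of its principal transcript are also exons of BCL2L12 on the opposite strand. BCL2L12 averaged 7.75 CPM in DOX_F, 8.67 CPM in DOX and 25.9 CPM in CTRL. The library kit does not mark strand, so reads of the 2 genes cannot be told apart in the shared bases.

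TREX1, the exonuclease that degrades DNA in the cytosol, fell with doxorubicin whether or not ferrostatin-1 was present. Replicates 1 to 4 had 5.91, 6.85, 6.87 and 4.52 CPM in DOX_F, 6.09, 6.08, 7.35 and 4.94 CPM in DOX, and 10.5, 11.8, 12.2 and 12.2 CPM in CTRL. Every treated library was below every CTRL library, and the 2 treated groups overlapped. On the log2 scale the change was -0.93 ± 0.13 in DOX against CTRL (edgeR adjusted p = 3.97e-06) and -0.96 in DOX_F against CTRL (edgeR adjusted p = 2.2e-06). In DOX_F against DOX it was -0.03, with an interval from -0.32 to 0.27 (edgeR adjusted p = 0.956). TREX1 lies on chromosome 3 from 48465811 to 48467645 (plus strand), and 100% of its principal transcript falls within exons of ATRIP on the same strand. ATRIP, a partner of the checkpoint kinase ATR, also fell in DOX against CTRL, by 0.78 on the log2 scale (edgeR adjusted p = 1.77e-07), so how reads were split between the 2 genes is uncertain.

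DNASE2, the acid nuclease of lysosomes, rose. Its level was 56.9, 58.4, 51.9 and 55.2 CPM in DOX_F, 54.4, 59.0, 57.4 and 56.8 CPM in DOX, and 27.7, 39.1, 37.9 and 34.4 CPM in CTRL. The lowest treated library was above the highest CTRL library, and DOX_F and DOX overlapped. In log2 terms it changed by 0.71 ± 0.08 in DOX against CTRL (edgeR adjusted p = 1.55e-07), 0.68 in DOX_F against CTRL (edgeR adjusted p = 2.6e-07) and -0.03 in DOX_F against DOX (edgeR adjusted p = 0.896). CTRL replicate 1 was the lowest library, and without it the value in DOX against CTRL was 0.62. DNASE2 lies on chromosome 19 from 12875211 to 12881468 (minus strand). Set per kilobase of transcript, the ratio of DNASE2 to TREX1 was 7.14 ± 1.52 in DOX_F, 7.14 ± 1.17 in DOX and 2.23 ± 0.22 in CTRL (SD, n = 4 each), with no overlap between treated and CTRL libraries.

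RNASEH2A makes the catalytic subunit of RNase H2, and RNASEH2B and RNASEH2C make the partners that hold it together. All 3 fell with doxorubicin, by very different amounts. Their upstream sequences are shown because they belong to one complex yet moved unequally, beside DNASE2, which lies on the same chromosome as RNASEH2A and moved the other way. Each is the 250 bases before the RefSeq gene start on GRCh38.p14, 5′ to 3′ on the strand of the gene: RNASEH2A at chr19:12806334-12806583 (plus), RNASEH2B at chr13:50909428-50909677 (plus, the first of 2 listed starts), RNASEH2C at chr11:65720799-65721048 (minus) and DNASE2 at chr19:12881450-12881699 (minus). RefSeq and GENCODE 29 starts differ: the windows of RNASEH2A, RNASEH2C and DNASE2 run past the GENCODE 29 gene starts, at 12806556, 65720947 and 12881468. By that release these windows lie partly inside the genes. Capitals mark CCAAT, or ATTGG where it reads on the opposite strand.
RNASEH2A: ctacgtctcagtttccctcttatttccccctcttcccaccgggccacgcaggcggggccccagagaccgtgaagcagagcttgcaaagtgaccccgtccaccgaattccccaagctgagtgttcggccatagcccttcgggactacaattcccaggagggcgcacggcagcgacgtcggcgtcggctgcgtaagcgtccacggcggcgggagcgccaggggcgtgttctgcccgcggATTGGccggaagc
RNASEH2B: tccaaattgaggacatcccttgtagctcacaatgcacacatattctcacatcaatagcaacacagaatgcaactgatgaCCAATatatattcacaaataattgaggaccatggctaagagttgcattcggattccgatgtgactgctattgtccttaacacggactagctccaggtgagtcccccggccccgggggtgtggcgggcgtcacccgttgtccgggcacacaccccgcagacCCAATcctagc
RNASEH2C: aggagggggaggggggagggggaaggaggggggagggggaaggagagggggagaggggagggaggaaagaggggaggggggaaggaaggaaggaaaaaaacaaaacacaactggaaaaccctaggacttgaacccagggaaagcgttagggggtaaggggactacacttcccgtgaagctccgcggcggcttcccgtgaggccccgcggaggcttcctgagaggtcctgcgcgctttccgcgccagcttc
DNASE2: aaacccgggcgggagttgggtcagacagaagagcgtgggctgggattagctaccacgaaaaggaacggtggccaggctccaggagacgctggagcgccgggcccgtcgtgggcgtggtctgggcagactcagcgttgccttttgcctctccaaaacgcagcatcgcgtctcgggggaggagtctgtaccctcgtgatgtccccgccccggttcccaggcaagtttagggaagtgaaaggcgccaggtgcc

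Both strands were searched for 4 kinds of letters. These were the CCAAT box, the E-box (CACGTG), the cell cycle element (TTTGAA or TTCGAA), and the E2F element in the forms TTTCCCGC, TTTCGCGC, TTTGCCGC and TTTGGCGC. RNASEH2A had 1 CCAAT on the opposite strand, 13 to 9 bases before the start, and RNASEH2B had 2 on its own strand, 171 to 167 and 11 to 7 bases before the start shown. A gene can have several listed starts, and the 7 genes with a promoter in the table had 10 windows, so a gene was counted where any of its windows held the letters. By that count 4 of the 7 held CCAAT (RNASEH2A, RNASEH2B, TBK1 and ADAR), against 37.0% of 27305 genes, and 2 held CACGTG (TBK1 and ADAR), against 7.73%. None of the 7 held an E2F form, found for 3.4% of genes, or a cell cycle element, found for 17.2%. RNASEH2C, DNASE2 and TREX1 held none of the 4. These are matches of letters in a short window and say nothing about which factor binds.

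RNASEH2A fell furthest of the 9 tested genes. Replicates 1 to 4 had 9.83, 9.60, 9.59 and 9.39 CPM in DOX_F, 9.25, 11.2, 11.5 and 11.1 CPM in DOX, and 62.8, 71.4, 76.7 and 74.9 CPM in CTRL. Treated and CTRL libraries were far apart, and DOX_F and DOX overlapped. Its log2 fold change was -2.73 ± 0.08 in DOX against CTRL (edgeR adjusted p = 7.58e-17), -2.89 in DOX_F against CTRL (edgeR adjusted p = 2.38e-17) and -0.16 in DOX_F against DOX, with an interval from -0.35 to 0.02 (edgeR adjusted p = 0.389). The gene lies on chromosome 19 from 12806556 to 12815201 (plus strand). THSD8, which shares 40.8% of the bases of its principal transcript, averaged at most 0.11 CPM in any group.

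RNASEH2B was lower in all treated libraries than in any CTRL library. It had 16.8, 13.9, 17.4 and 17.0 CPM in DOX_F, 15.4, 15.6, 15.1 and 13.2 CPM in DOX, and 33.0, 35.0, 32.2 and 34.6 CPM in CTRL. As a log2 fold change this was -1.18 ± 0.08 in DOX against CTRL (edgeR adjusted p = 3.44e-11), -1.05 in DOX_F against CTRL (edgeR adjusted p = 1.47e-10) and 0.14 in DOX_F against DOX (interval -0.03 to 0.30, edgeR adjusted p = 0.438). DOX_F and DOX overlapped. The gene lies on chromosome 13 from 50909678 to 51024120 (plus strand).

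RNASEH2C fell least of the 3. Its level was 44.2, 46.5, 37.9 and 40.8 CPM in DOX_F, 42.7, 42.5, 45.0 and 45.5 CPM in DOX, and 51.0, 53.1, 58.9 and 56.9 CPM in CTRL. The treated libraries, which overlapped each other, stayed below all CTRL libraries. Its log2 fold change was -0.32 ± 0.06 in DOX against CTRL (edgeR adjusted p = 0.0002) and -0.38 in DOX_F against CTRL (edgeR adjusted p = 3.51e-05). In DOX_F against DOX it was -0.05 (edgeR adjusted p = 0.785). RNASEH2C lies on chromosome 11 from 65714005 to 65720947 (minus strand), and 38.4% of the bases of its principal transcript are also exons of KAT5 on the opposite strand. KAT5, an acetyltransferase, fell by 0.57 on the log2 scale in DOX against CTRL (edgeR adjusted p = 2.43e-07), and in the shared bases its reads cannot be told apart from those of RNASEH2C.

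The unequal falls changed the balance of subunit RNAs. Set per kilobase of principal transcript, RNASEH2A made up 12.2% ± 0.27 of the sum of the 3 in DOX_F, 13.6% ± 1.09 in DOX and 39.1% ± 1.42 in CTRL (SD, n = 4 each). RNASEH2C made up 52.9% ± 3.84 in DOX_F, 54.8% ± 1.94 in DOX and 29.7% ± 0.86 in CTRL, while RNASEH2B stayed between 31.3% and 34.9% in the group means. RNASEH2A over RNASEH2C was 0.210 to 0.257 in DOX_F and 0.220 to 0.267 in DOX, against 1.25 to 1.37 in CTRL, so treated and CTRL libraries did not overlap. RNASEH2B over RNASEH2C was 0.515 to 0.787 in DOX_F and 0.495 to 0.632 in DOX, against 0.937 to 1.13 in CTRL. The shares themselves depend on the transcript length chosen for each gene, whereas the differences in log2 fold change between subunits do not. Proliferation markers fell in the same libraries; their part in the fall of RNASEH2A was not tested.

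**Figure D3:**
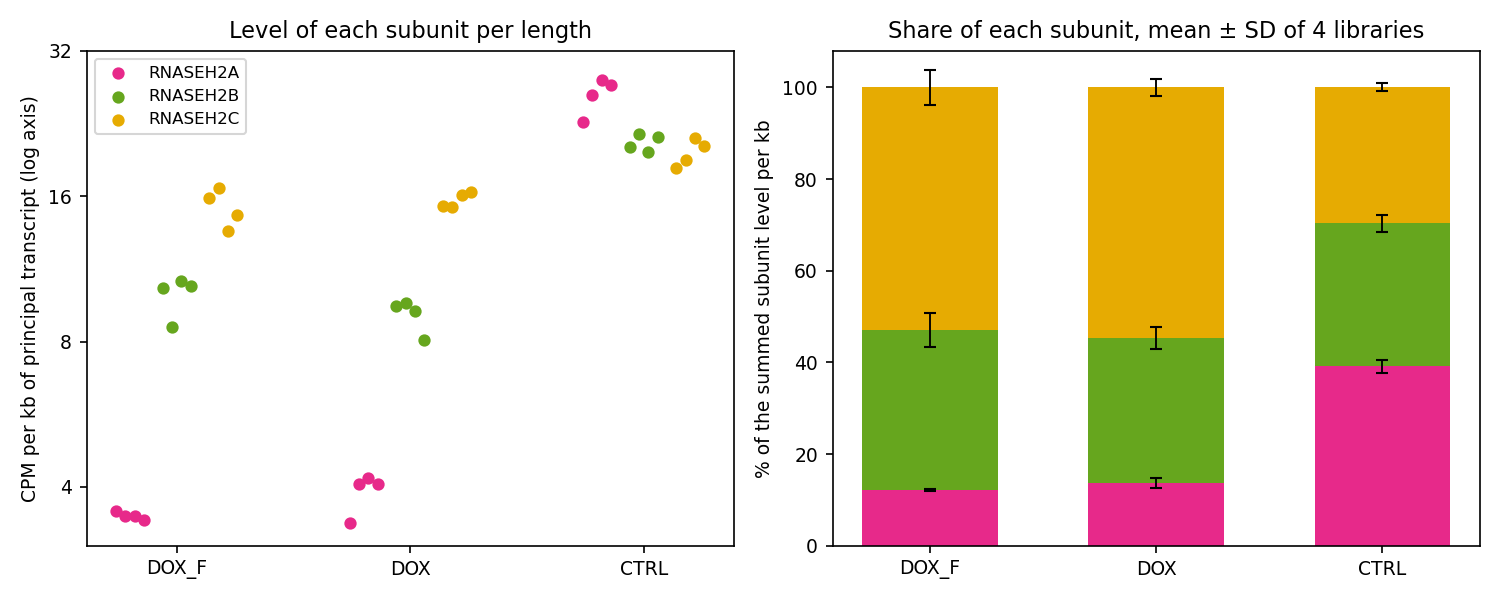
Levels of the 3 RNase H2 subunit RNAs per kilobase of principal transcript (left, CPM per kilobase on a log axis, 1 point per library) and the share of each in their sum (right, stacked bars of group means in percent, error bars SD, n = 4), with DOX_F, DOX and CTRL from left to right. RNASEH2A is the most abundant of the 3 by this measure in CTRL at 39.1% and the least abundant in DOX_F at 12.2% and DOX at 13.6%.

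ADAR, the editing enzyme for double-stranded RNA, had 213, 238, 242 and 224 CPM in DOX_F, 235, 230, 224 and 235 CPM in DOX, and 254, 248, 235 and 239 CPM in CTRL. The 3 groups overlapped. Its log2 fold change was -0.08 in DOX against CTRL (interval -0.17 to 0.02, edgeR adjusted p = 0.144), -0.01 in DOX_F against DOX (interval -0.11 to 0.08, edgeR adjusted p = 0.94) and -0.09 in DOX_F against CTRL (edgeR adjusted p = 0.0925). The last of these passed without DOX_F replicate 3 (-0.12, edgeR adjusted p = 0.0411). ADAR lies on chromosome 1 from 154582057 to 154628013 (minus strand). Scaled by library totals alone, ADAR and IRF3 were called lower in DOX against CTRL, each by 0.22 on the log2 scale (edgeR adjusted p = 0.000332 for ADAR and 0.0277 for IRF3), but that scaling also moved the median of all tested genes to -0.15.

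Per kilobase of principal transcript, ADAR had the highest level of the 10 genes in each group and CGAS the lowest. In DOX_F, the order was ADAR (34.4 CPM per kilobase), DNASE2 (28.5), IRF3 (22.6), STING1 (22.0), RNASEH2C (15.2), RNASEH2B (10.0), TBK1 (9.63), TREX1 (4.10), RNASEH2A (3.49) and CGAS (0.0488). In DOX it was ADAR (34.7), DNASE2 (29.1), STING1 (26.1), IRF3 (23.5), RNASEH2C (15.7), TBK1 (9.50), RNASEH2B (9.10), TREX1 (4.16), RNASEH2A (3.91) and CGAS (0.0589). In CTRL it was ADAR (36.6), RNASEH2A (26.0), IRF3 (24.9), STING1 (20.7), RNASEH2B (20.7), RNASEH2C (19.7), DNASE2 (17.8), TBK1 (9.29), TREX1 (7.94) and CGAS (0.0473). Some neighbours in these orders differed by no more than the SD of one of them. These were TBK1 and RNASEH2B as well as TREX1 and RNASEH2A in both treated groups, IRF3 and STING1 in DOX_F, and in CTRL RNASEH2A and IRF3 and each neighbouring pair from STING1 down to DNASE2. RNASEH2A stood ninth in both treated groups and second in CTRL, and DNASE2 stood second in both treated groups and seventh in CTRL.

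For each tested gene, the genes whose log2 CPM ran most like its own over the 12 libraries were found among 11142 or 11143 candidates, by the root mean square difference after centring. Nearest to RNASEH2A were AURKA, a mitotic kinase (0.09 on the log2 scale), RACGAP1, a regulator of cytokinesis (0.10), and ZNF367 (0.12), where RNASEH2A itself varied by 1.33. RNASEH2B was nearest to MGME1, a mitochondrial DNA exonuclease (0.09), FOXP1 and SKA2, and RNASEH2C to TTLL12 (0.04), EMC8 and DGKZ. TREX1 was nearest to PHF13 (0.12), FGF12 and TMEM107, DNASE2 to IFITM2 (0.07), LYPLA2 and APRT, and STING1 to MEAK7 (0.05), PANX1 and ASB1. For TBK1 these were PHF20L1 (0.05), RNMT and HAPSTR1, for IRF3 DCXR (0.07), PHKG2 and NHP2, and for ADAR USP22 (0.03), RBFOX2 and ANKFY1. TBK1 and ADAR themselves varied by only 0.07 each, and IRF3 by 0.14. The points share libraries and depth, and the values describe likeness in these 12 libraries only.

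Around the 10 genes, 8 lists of pathway genes were counted with the same edgeR calls, beside 33.4% of all tested genes higher and 33.8% lower in DOX against CTRL. Of 11 genes for ribonucleotide excision and removal of RNA:DNA hybrids, 0 rose, 9 fell and 2 did not pass, with a median log2 fold change of -0.73 against -0.01 for all tested genes. FEN1, the flap endonuclease, averaged 26.9 ± 0.84 CPM in DOX_F, 26.3 ± 1.77 in DOX and 130 ± 10.3 in CTRL (log2 fold change -2.30 in DOX against CTRL, edgeR adjusted p = 7.58e-17). LIG1, the ligase that closes the nick, averaged 19.5 ± 2.39 CPM in DOX_F, 17.0 ± 0.99 in DOX and 86.0 ± 3.34 in CTRL (-2.34, edgeR adjusted p = 4.73e-16). RNASEH1, the single-subunit RNase H, named here after its values were seen, had 75.1 ± 1.51 CPM in DOX_F, 70.2 ± 2.30 in DOX and 73.9 ± 2.87 in CTRL (-0.08, edgeR adjusted p = 0.161).

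Among other DNA sensors and nucleases, 2 of 8 rose, 4 fell and 2 did not pass in DOX against CTRL. The risers were DNASE1L1 at 99.6 ± 4.33 CPM in DOX_F, 99.3 ± 5.70 in DOX and 39.0 ± 2.44 in CTRL (1.35, edgeR adjusted p = 6.7e-14), and PLD3, a lysosomal exonuclease, at 206 ± 16.7 CPM in DOX_F, 197 ± 1.70 in DOX and 85.4 ± 6.49 in CTRL (1.21, edgeR adjusted p = 6.59e-13). SAMHD1, which breaks down nucleotides, fell by 0.29 on the log2 scale (edgeR adjusted p = 0.00101). TREX2, the relative of TREX1, was called lower on few reads, with 7 to 11 counts in DOX_F libraries, 0 to 8 in DOX and 17 to 27 in CTRL. Of 8 cGAS cofactors and brakes, 0 rose and 7 fell, led by PARP1 (-0.95, edgeR adjusted p = 1.9e-13) and BANF1, which coats DNA and keeps cGAS off it (-0.66, edgeR adjusted p = 5.71e-09). The median of that list was -0.43.

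Of 16 genes for STING traffic and turnover, 11 rose, 3 fell and 2 did not pass in DOX against CTRL, with a median of 0.42. SEC24C, a coat protein for export from the endoplasmic reticulum, averaged 283 ± 1.94 CPM in DOX_F, 273 ± 4.66 in DOX and 189 ± 5.41 in CTRL (0.53, edgeR adjusted p = 2.43e-10), and COPA, of the coat that returns cargo, rose by as much (0.53, edgeR adjusted p = 8.98e-10). INSIG1, an anchor for sterol sensing, fell to 92.0 ± 3.73 CPM in DOX, against 130 ± 3.65 in CTRL, and NPC1, a lysosomal cholesterol transporter, fell by 0.36 on the log2 scale (edgeR adjusted p = 8.22e-06). Of 7 genes for cGAMP transport and breakdown, 2 rose, 3 fell and 2 did not pass. LRRC8A, a subunit of volume-regulated anion channels, rose (0.44, edgeR adjusted p = 1.03e-07), whereas its partner LRRC8C fell (-1.95, edgeR adjusted p = 3.18e-14) and SLC19A1, the folate carrier that also takes up cyclic dinucleotides, fell (-0.92, edgeR adjusted p = 5.67e-10). ABCC1 rose by 0.17, a call lost with library totals alone (0.03, edgeR adjusted p = 0.627).

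Downstream, 6 of 13 kinase partners and transcription factors rose, 4 fell and 3 did not pass in DOX against CTRL. SQSTM1, an autophagy receptor, averaged 1089 ± 20.9 CPM in DOX_F, 1046 ± 19.9 in DOX and 503 ± 30.0 in CTRL (1.06, edgeR adjusted p = 2.76e-14). IRF1 and IRF2 fell, by 0.82 and 0.53 on the log2 scale (edgeR adjusted p = 4.38e-08 and 3.09e-06). Of 10 tested genes on the list of interferons and IRF3-driven targets, 3 rose, 3 fell and 4 did not pass. Their median log2 fold change was -0.37, against -0.01 for all tested genes. In DOX_F against CTRL, 2 of the 10 were higher and 5 lower, beside 33% and 34.2% of all tested genes. The median there was -0.62, against -0.02 for all tested genes. No interferon gene was among the 10. ISG15, a ubiquitin-like protein, averaged 18.0 ± 2.03 CPM in DOX_F, 17.5 ± 1.51 in DOX and 9.64 ± 1.34 in CTRL, and IFIT1, which binds foreign RNA, averaged 4.94 ± 1.18 CPM in DOX_F, 4.80 ± 0.83 in DOX and 8.63 ± 0.39 in CTRL. In DOX against CTRL, IFIT2 also rose and IFI44 also fell, as did IFIT3 (-0.33, edgeR adjusted p = 0.00211). IFNB1, the interferon gene that IRF3 controls, had 0 to 2 counts in every library and was not tested.

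**Figure D4:**
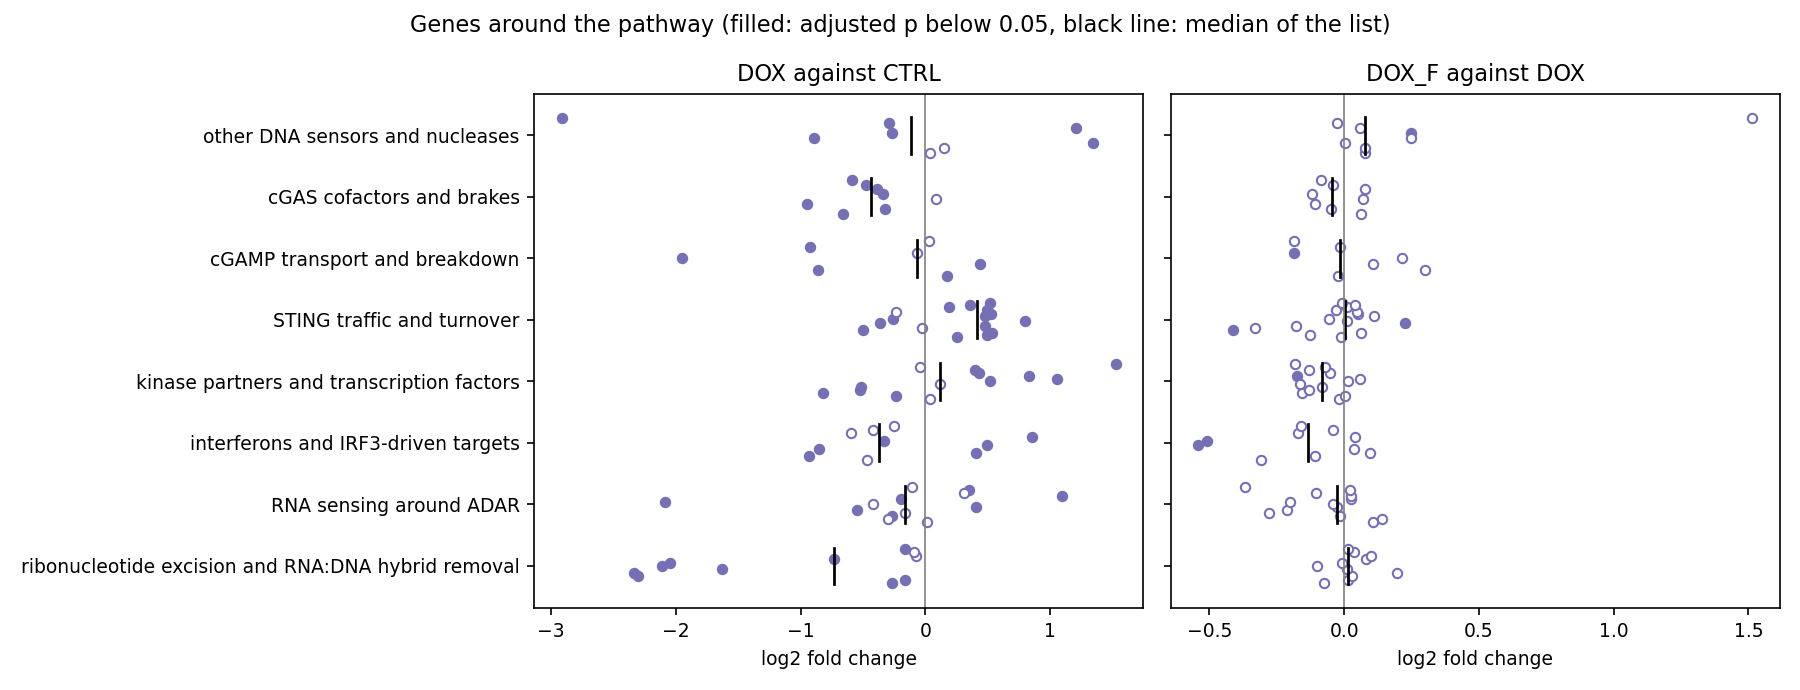
Log2 fold change of every tested gene (points) in the 8 pathway lists, for DOX against CTRL (left) and DOX_F against DOX (right), with genes past an adjusted p of 0.05 filled, others open, a black line at each list's median and a separate axis range in each panel. In DOX against CTRL the list for ribonucleotide excision has its median at -0.73 and that for STING traffic at 0.42, while in DOX_F against DOX the medians of all 8 lists lie between -0.13 and 0.08.

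Adding ferrostatin-1 to doxorubicin moved few of these genes. In DOX_F against DOX, 2.36% of all tested genes were higher and 3.28% lower, and over the 8 lists the median log2 fold change ran from -0.13 to 0.08. IFIT3 and IFIT2, 2 of the 10 interferon-related genes, were lower. IFIT3 averaged 11.3 ± 0.67 CPM in DOX_F, 16.1 ± 2.01 in DOX and 20.2 ± 1.37 in CTRL (-0.51, edgeR adjusted p = 0.00102). IFIT2 averaged 5.10 ± 0.81 CPM in DOX_F, 7.43 ± 0.57 in DOX and 5.29 ± 0.66 in CTRL (-0.54, edgeR adjusted p = 0.016). INSIG1 was lower as well, at 69.1 ± 0.63 CPM in DOX_F and 92.0 ± 3.73 in DOX (-0.41, edgeR adjusted p = 4.05e-06), and NPC1 was higher (0.23, edgeR adjusted p = 0.0165). IFI16, another DNA sensor, averaged 44.3 ± 3.11 CPM in DOX_F, 37.3 ± 2.13 in DOX and 44.9 ± 3.20 in CTRL (0.25, edgeR adjusted p = 0.0271). LRRC8E was lower by 0.19 (edgeR adjusted p = 0.0406). Of these calls, only those of IFIT3 and INSIG1 held in all 19 alternatives. The call of IFIT2 was lost without DOX replicate 2 (-0.51) and without DOX_F replicate 2 (-0.45), and that of NPC1 without DOX replicate 2 or 3 or DOX_F replicate 2 or 4 (0.21 each). The call of IFI16 was lost without DOX replicate 1, 2 or 4 or DOX_F replicate 3 or 4 (0.20 to 0.26), and that of LRRC8E in most alternatives (-0.20 to -0.17).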

How the data were processed

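RNA of 12 libraries was read from both ends at 150 bases with a kit that does not mark strand, per the labels' protocols. The authors deposited whole-number counts per gene; per the submitters' processing notes, Salmon and DESeq2 were used with GRCh38, and their roles and versions are not given in the sources used here. The table holds 22498 identifiers, of which 1935 have no symbol; 618 symbols had more than 1 identifier and were summed, giving 21599 rows. Count columns carry a group and a number from 1 to 4, and 0 columns lacked a group. The main fit did not pair libraries across groups by these numbers, and whether the numbers mark pairs is not known.

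Genes passing filterByExpr (minimum count 10, minimum total 15) were scaled by TMM and fitted over all 12 libraries in 1 quasi-likelihood model of edgeR, each group with its own mean. P-values are two-sided, adjusted by Benjamini-Hochberg over the 13340 tested genes of a comparison, and called below 0.05; every adjusted p in the text comes from edgeR unless another tool is named. Confidence intervals are at 95%. Without molecular identifiers, intervals and limits from counts describe counting error alone. Log2 CPM for likeness used a prior count of 2, and candidates had a mean log2 CPM of at least 1. Lengths, positions and overlaps came from the principal transcript in GENCODE 29, and promoters from RefSeq, which listed 7 of the 10 genes. AIM2, CXCL10, IFNL1 and RPE65 were not analysed here. A gene that the naming rule picked is not reported here, though counts over lists include it.

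Every one of the 10 genes is named. From each pathway list, up to 2 called genes per direction and comparison were named by smallest p, and for each tested gene the 3 most alike. The genes, lists and tests were chosen with earlier results of these data known. The code was tested on simulated data. Alternatives were library totals alone, DESeq2 size factors, the DESeq2 test, no filter, separate identifiers, a replicate block, only the 8 libraries compared, and leaving out each library. Software was R 4.3.3, edgeR 4.0.16, limma 3.58.1, DESeq2 1.42.0, Python 3.11.15, numpy 2.4.6, pandas 2.3.3, scipy 1.17.1 and matplotlib 3.10.9.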

Additional observations from a re-analysis of the deposited data

Results flagged for a closer look

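In 3 of 30 groups of 4 libraries, 1 library lay far from the other 3 by Dixon's test at its 95% level, which chance alone gives in about 1 in 20 groups. IRF3 was 35.8 CPM in CTRL replicate 1, against 45.4 to 46.5 CPM in the other CTRL libraries; this is also the library that stood apart over all genes. RNASEH2A was 9.25 CPM in DOX replicate 1, against 11.1 to 11.5 CPM in the other DOX libraries, a gap that is small beside the distance to the CTRL libraries. RNASEH2B was 13.9 CPM in DOX_F replicate 2, against 16.8 to 17.4 CPM in the other DOX_F libraries, and that library overlapped the DOX group.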

How the results depend on the processing

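The calls of TREX1, DNASE2, RNASEH2A, RNASEH2B and RNASEH2C against CTRL, and of STING1 in DOX against CTRL, held in all 19 alternatives. In DOX_F against DOX, the number of the 10 genes changed was 0 to 1 when single libraries were left out, and it was 0 without DOX replicate 4. Counts over all tested genes ran from 8529 to 9026 in DOX against CTRL, 529 to 915 in DOX_F against DOX and 8621 to 9015 in DOX_F against CTRL when single libraries were left out. With library totals alone, called genes were higher in 35.8% of cases in DOX against CTRL, against 49.7% with TMM, and in 35.0% of cases in DOX_F against CTRL, against 49.1%. That scaling moved the medians of all tested genes to -0.15 and -0.17, turned TBK1 to -0.11 in DOX against CTRL and to -0.10 in DOX_F against CTRL, and turned STING1 to -0.0589 in DOX_F against CTRL. In the last comparison it also called IRF3 (-0.28) and ADAR (-0.24) lower, and ADAR was called without DOX_F replicate 3 (-0.12). Other values that changed sign were small and uncalled, and leaving out single libraries gave these ranges. In DOX_F against DOX, TBK1 ran from -0.0362 (without DOX_F replicate 3) to 0.0571, IRF3 from -0.110 to 0.0256 (without DOX_F replicate 3), TREX1 from -0.115 to 0.0912 (0.0729 without DOX replicate 3, the highest without DOX_F replicate 4) and ADAR from -0.0389 to 0.0219 (without DOX_F replicate 1). In DOX_F against CTRL, TBK1 ran from -0.00335 (without DOX_F replicate 3) to 0.0900. The causes were not tested. Library totals alone left the list for ribonucleotide excision with 0 higher and 11 lower and that for STING traffic with 10 higher and 4 lower in DOX against CTRL, and turned the median of kinase partners to -0.02.

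Same-numbered libraries had residual correlations of -0.104 to 0.0976, against -0.102 to 0.142 for different numbers. With a replicate block from these numbers, 8804 genes changed in DOX against CTRL, 634 in DOX_F against DOX and 8878 in DOX_F against CTRL, and the 10 genes contributed 6, 1 and 5 calls. Depth limits CGAS, which was not tested. Without the filter on low counts, edgeR gave it adjusted p-values of 0.804, 0.972 and 0.981.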

Other observations

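Genes of RNA sensing around ADAR moved in both directions. In DOX against CTRL, 3 of 13 rose, 4 fell and 6 did not pass, beside 33.4% of all tested genes higher and 33.8% lower. The median log2 fold change of the 13 was -0.16, against -0.01 for all tested genes. RIGI, a sensor of foreign RNA, averaged 39.8 ± 3.72 CPM in DOX_F, 39.0 ± 5.32 in DOX and 18.2 ± 1.84 in CTRL (SD, n = 4 each; 1.10 in DOX against CTRL, edgeR adjusted p = 4.82e-09), and its adaptor MAVS rose as well (0.41, edgeR adjusted p = 1.05e-06). OAS3, which makes the signal for RNase L, fell to 8.59 ± 1.12 CPM in DOX, against 36.5 ± 2.45 in CTRL (-2.08, edgeR adjusted p = 2.03e-14). LSM11, a histone messenger RNA processing factor, fell (-0.55, edgeR adjusted p = 4.89e-05). In DOX_F against DOX, 0 of the 13 passed, beside 5.64% of all tested genes.

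RNASEH2A and DNASE2 are neighbours on chromosome 19, 60009 bases apart, and moved in opposite directions, by -2.73 and 0.71 on the log2 scale in DOX against CTRL. The 1 tested gene between them, MAST1, had a log2 fold change of 0.12 (edgeR adjusted p = 0.66). This stretch was chosen after its values were seen.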
